A study of Homo sapiens with 10 samples.

Results

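The genes described here are the neighbours of *VEGFA*, the gene of vascular endothelial growth factor A, within 1 Mb on either side on chromosome 6. They were chosen by position: rows of the deposited table on chromosome 6 that start or end between 42737946 and 44754223 (GRCh37/hg19), leaving out *VEGFA* and the long intergenic noncoding and small nucleolar RNA symbols. Of 55 neighbours listed, 37 reached 1 cpm, a read count scaled to library size, in at least 2 of the 10 libraries and were tested, among 13333 genes tested in all of 27945 listed. The tested neighbours comprised 27 before the deleted segment and 10 after it.

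RNA-Seq was carried out on clonal lines of EA.hy926, an established human endothelial line made by fusing umbilical vein endothelial cells with the lung carcinoma line A549. Both sets were grown in DMEM with 10% FBS. One set held 3 clones with a homozygous CRISPR/Cas9 deletion of the *VEGFA-LNC* promoter on chromosome 6 (genotype VEGFA_lincRNA knock-out) and 2 controls. The other held 3 clones with the *VEGFC-LNC* deletion on chromosome 4, which leaves the *VEGFA* locus intact, and 2 controls. Control cells were given guide RNAs but no Cas9 and were cloned in the same way. Nothing states that the 2 controls of a set came from separate clones or cultures, so their spread may be technical. The p-values measure the spread between libraries pooled over all 4 groups, clones as well as controls.

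Genes that share a chromosome segment can share enhancers and chromatin domains, and a long noncoding RNA can act in *cis*, on genes near its own site of transcription, or in *trans*, on genes elsewhere. Neighbours are therefore the place where a *cis* effect is looked for. Head-to-head genes, whose start sites lie close together on opposite strands, often share 1 stretch of promoter DNA.

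The deleted segment is 489 bases long and lies in *VEGFA*, between the first and second exons of most isoforms in the Gencode annotation, and inside 1 exon of a retained-intron transcript. *VEGFA-LNC* starts there and runs antisense to *VEGFA*. Its GC content was 59.3%, and it held 7 CpG dinucleotides and 1 GC box (GGGCGG on either strand). The central 300 bases are shown because their loss is what separates the *VEGFA-LNC* clones from all the other libraries. They are at chr6:43741107-43741406 (GRCh37, plus strand), with the 4 CpG dinucleotides in capitals.

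Deleted segment, central part: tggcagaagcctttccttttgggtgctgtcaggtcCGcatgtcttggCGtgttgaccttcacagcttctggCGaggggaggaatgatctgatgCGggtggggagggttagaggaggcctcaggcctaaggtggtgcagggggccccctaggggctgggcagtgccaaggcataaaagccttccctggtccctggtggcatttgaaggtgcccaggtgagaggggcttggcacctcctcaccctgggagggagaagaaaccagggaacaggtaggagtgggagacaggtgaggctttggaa

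The neighbours begin at some distance from it. The nearest tested neighbour before the segment was *MRPS18A*, a mitochondrial ribosomal protein gene 85463 bases away, and the nearest after it was *MRPL14*, another gene of that ribosome, 339691 bases away. All 5 tested neighbours within 250 kb lie before the segment. The 18 neighbours below the filter include *PTK7*, *GNMT*, *DLK2* and *RSPH9*. Of these 18, 4 were listed at 0 in all 10 libraries, and apart from the 78-base row of *MIR6780B* no value exceeded 0.534 FPKM.

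The 4 pairs of tested neighbours that stand head to head with less than 300 bases between their listed starts have their gaps shown here because the 2 genes of a pair can be compared across the same DNA. Capitals mark the GC box, GGGCGG or its complement CCGCCC, all on GRCh37 and the plus strand. The gaps are chr6:42981722-42981840, chr6:43027284-43027331, chr6:43484729-43484761 and chr6:43543813-43543877, in the order given.

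*MEA1* to *KLHDC3*: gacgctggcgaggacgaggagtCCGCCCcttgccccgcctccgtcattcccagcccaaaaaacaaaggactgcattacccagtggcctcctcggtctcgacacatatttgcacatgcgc

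*MRPL2* to *KLC4*: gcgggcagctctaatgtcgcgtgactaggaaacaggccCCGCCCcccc

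*YIPF3* to *POLR1C*: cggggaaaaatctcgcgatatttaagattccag

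*XPO5* to *POLH*: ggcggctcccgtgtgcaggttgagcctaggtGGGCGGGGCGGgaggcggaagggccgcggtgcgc

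A GC box occurred in 64.6% of the 48 promoter windows that RefSeq gives for 30 of the neighbours (GRCh38.p14, 300 bases each), and in 45.0% of all 35116 windows. The palindromic E-box CACGTG occurred in 22.9% of the neighbours' windows and 7.26% of all windows. It stands once in the window of *KLHDC3*, at chr6:43013999-43014298 of GRCh38.p14 on the plus strand, shown with that motif in capitals. It contains the hypoxia response core ACGTG on both strands. Neighbours with several windows, and pairs whose windows overlap, enter these shares more than once. The neighbours had also passed the filter on level, which was not applied to all 35116 windows. The shares therefore do not compare like sets of genes.

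*KLHDC3* promoter window: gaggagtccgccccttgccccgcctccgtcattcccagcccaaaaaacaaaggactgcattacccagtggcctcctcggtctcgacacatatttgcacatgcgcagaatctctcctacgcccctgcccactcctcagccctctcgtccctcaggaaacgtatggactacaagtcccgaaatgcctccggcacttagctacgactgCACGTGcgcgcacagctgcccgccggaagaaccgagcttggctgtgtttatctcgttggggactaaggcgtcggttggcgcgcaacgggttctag

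The library totals to which the FPKM values were scaled, recovered from those values, were 6743964 to 24197622 reads. The spread between libraries was small in the controls, with a median SD over the neighbours of 0.06 in the *VEGFA-LNC* controls and 0.07 in the *VEGFC-LNC* controls on the log2(FPKM + 0.1) scale. It was 0.31 in the *VEGFA-LNC* clones and 0.21 in the *VEGFC-LNC* clones. The fit pooled these unequal spreads, so the p-values between the control sets also rest on the spread of the clones. Of 12 endothelial marker genes, 11 were tested, and their summed level was 401 to 1170 FPKM, against 0.39 to 4.58 FPKM for 5 leukocyte markers, 1 of them tested. The summed level of 7 epithelial markers, 5 of them tested, was 445 to 1320 FPKM, and that of 5 fibroblast markers at most 0.594 FPKM.

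The neighbours ranged widely in level. *HSP90AB1*, the constitutive HSP90 chaperone, was the highest, at 293 to 461 FPKM. *SLC29A1*, an equilibrative nucleoside transporter, followed at 35.2 to 73.2 FPKM, and *RPL7L1*, a ribosome assembly factor, at 18.5 to 36.9 FPKM. The lowest were the noncoding *LOC401261*, *CAPN11*, a calpain protease, and the uncharacterised *C6orf226*. *LOC401261* had 4 to 39 reads a library and *C6orf226* 5 to 33. The ranges of *SLC29A1* and *RPL7L1* across the 10 libraries overlap only slightly.

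The first comparison asks which neighbours changed in the *VEGFA-LNC* deletion clones against their own controls. *KLHDC3* alone was called, rising 1.56-fold, where a call needs an FDR under 0.05 and a fold change of at least 1.5. It encodes a receptor that brings proteins to a CUL2 ubiquitin ligase. Thus 1 of 37 neighbours (2.7%) was called, against 367 of 13333 genes (2.75%). The clones lay wholly above or wholly below both controls for 14 neighbours (37.8%), 5 higher and 9 lower, against 39.0% of all genes. In these bulk libraries, fewer cells of a type and less RNA per cell cannot be told apart.

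*KLHDC3* (NM_057161, plus strand, 42981841 to 42989036) is not a near neighbour, at 751976 bases before the segment. Its level was 7.48 and 8.46 FPKM in the *VEGFA-LNC* controls and 12.8, 12.2 and 12.4 FPKM in the *VEGFA-LNC* clones. The *VEGFC-LNC* controls had 9.92 and 10.7 FPKM and the *VEGFC-LNC* clones 9.30, 8.41 and 10.1 FPKM. The *VEGFA-LNC* clones were the 3 highest of the 10 libraries, and the *VEGFA-LNC* controls included the lowest. The log2 fold change was 0.64 (SE 0.13, FDR 0.0382), and every library held at least 137 reads of it. The call was lost against all 4 controls together (log2 fold change 0.46, FDR 0.239), where 29 of 13333 genes were called, against 367 as reported. It was also lost without the second or the third *VEGFA-LNC* clone, where 163 and 108 genes were called. Leaving out any control left its set with 1 library. The call did not hold there, and far fewer genes were called in all. With the replicate number as a block the call was lost too (log2 fold change 0.61, FDR 0.0889), where 151 genes were called. Over all the alternatives the log2 fold change was 0.46 to 0.73. The table also lists a longer *MEA1* row that runs across the start of *KLHDC3* on the other strand, and the strand setting of the counting is not given in the sources used here.

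*MEA1*, across the 119-base gap, was not called. It stood at 24.8 and 22.3 FPKM in the *VEGFA-LNC* controls and at 23.2, 22.5 and 22.2 FPKM in the clones, a log2 fold change of −0.06. The ratio of *KLHDC3* to *MEA1* was 0.302 and 0.379 in those controls and 0.545 to 0.558 in the clones. In the libraries of the *VEGFC-LNC* set this ratio was 0.451 to 0.559, so it was the *VEGFA-LNC* controls that stood apart by this measure. Of the other 3 pairs, *XPO5* (0.22) and *POLH* (−0.35) had log2 fold changes of opposite sign in the *VEGFA-LNC* comparison, while *MRPL2* (−0.22) and *KLC4* (−0.36), and *YIPF3* (−0.12) and *POLR1C* (−0.18), had the same sign.

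*NFKBIE*, which encodes the NF-kB inhibitor IkB epsilon and lies 484403 bases after the segment, had the largest difference of any neighbour in this comparison, but was not called. Its level was 8.22 and 9.04 FPKM in the *VEGFA-LNC* controls and 2.72, 3.35 and 5.25 FPKM in the clones. It was 1.97 and 1.51 FPKM in the *VEGFC-LNC* controls and 1.39, 1.39 and 2.13 FPKM in the *VEGFC-LNC* clones. The *VEGFA-LNC* controls were thus far above all the other libraries, and every *VEGFA-LNC* clone was above every library of the *VEGFC-LNC* set. The log2 fold change was −1.22 (SE 0.30, FDR 0.0666). With a pseudocount of 1 it passed the threshold (FDR 0.0399), as it did with voom on the recovered reads (FDR 0.027) and with the replicate block (−1.45, FDR 0.0325), and against all 4 controls together it was −0.10 (FDR 0.956).

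Among the 5 neighbours nearest before the segment, none was called. *MRPS18A* stood at 8.86 and 9.30 FPKM in the *VEGFA-LNC* controls and at 10.4, 10.7 and 10.3 FPKM in the clones, a log2 fold change of 0.20 (SE 0.15, FDR 0.521). *MAD2L1BP*, which encodes a silencer of the spindle checkpoint, stood at 13.0 and 12.5 FPKM against 9.87, 10.0 and 9.89 FPKM, a log2 fold change of −0.36 (SE 0.14, FDR 0.214). Both had clones wholly on one side of the controls, in opposite directions.

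*GTPBP2*, a GTP-binding protein of ribosome rescue, stood at 13.3 and 15.4 FPKM in the controls and at 6.90, 11.9 and 12.0 FPKM in the clones, where the first clone was far below the others. *POLH*, the DNA polymerase eta of translesion synthesis, had 5.27 and 5.76 FPKM against 4.25, 3.33 and 5.64 FPKM, so that its groups overlapped. *XPO5*, the exporter of microRNA precursors, had 7.51 and 8.65 FPKM against 12.6, 7.74 and 8.51 FPKM, and only the first clone was outside the controls' range. The listed ends of *GTPBP2* and *POLH* overlap by 43 bases on opposite strands.

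For *TMEM63B* and *CAPN11*, which lie after the segment, the *VEGFA-LNC* clones lay on both sides of their controls. *TMEM63B*, a mechanosensitive ion channel gene, stood at 5.12 and 5.25 FPKM in the controls and at 3.94, 9.27 and 9.74 FPKM in the clones. *CAPN11*, the next gene along, had 1.30 and 1.39 FPKM against 0.647, 3.19 and 2.60 FPKM. In both genes the first clone was below the controls and the second and the third were above them. The log2 fold change was 0.45 (SE 0.36) for *TMEM63B* and 0.38 (SE 0.71) for *CAPN11*, and neither was called. *MRPL14* (log2 fold change 0.01), *SLC29A1* (−0.34) and *HSP90AB1* (0.04) were not called.

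The largest differences with all clones on 1 side of the controls, beyond *KLHDC3* and *NFKBIE*, lay together at the far end of the window. *C6orf226* stood at 1.68 and 1.13 FPKM in the controls and at 1.96, 3.26 and 2.62 FPKM in the clones (log2 fold change 0.85, SE 0.32, FDR 0.193). *CNPY3*, a chaperone of Toll-like receptors, had 10.6 and 7.92 FPKM against 12.1, 19.2 and 16.2 FPKM (log2 fold change 0.76, SE 0.28, FDR 0.182). The readthrough row *CNPY3-GNMT* overlaps it on the same strand and had a log2 fold change of 0.73, so these rows can share reads and are not separate results. None of the 3 passed the threshold.

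The median log2 fold change of the 37 neighbours was −0.12, beside −0.06 over all tested genes and −0.02 over the 660 other genes of chromosome 6. The 19 tested genes 1 to 3 Mb before *VEGFA* had a median of −0.04, and only 2 were tested 1 to 3 Mb after it. Neighbours within 250 kb had a median of −0.35 (5 genes), those at 250 to 500 kb −0.12 (13 genes) and those farther away −0.08 (19 genes). For the *VEGFC-LNC* controls against the *VEGFA-LNC* controls, both with the locus intact, these bands had medians of −0.89, −0.36 and 0.05. For the *VEGFA-LNC* clones against the other 3 groups the medians were 0.16, 0.13 and 0.04. Across the 37 genes, distance and the size of the log2 fold change upon *VEGFA-LNC* deletion had a Spearman rho of 0.09. It is given as a description since neighbours share libraries and reads.

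**Figure D1:**
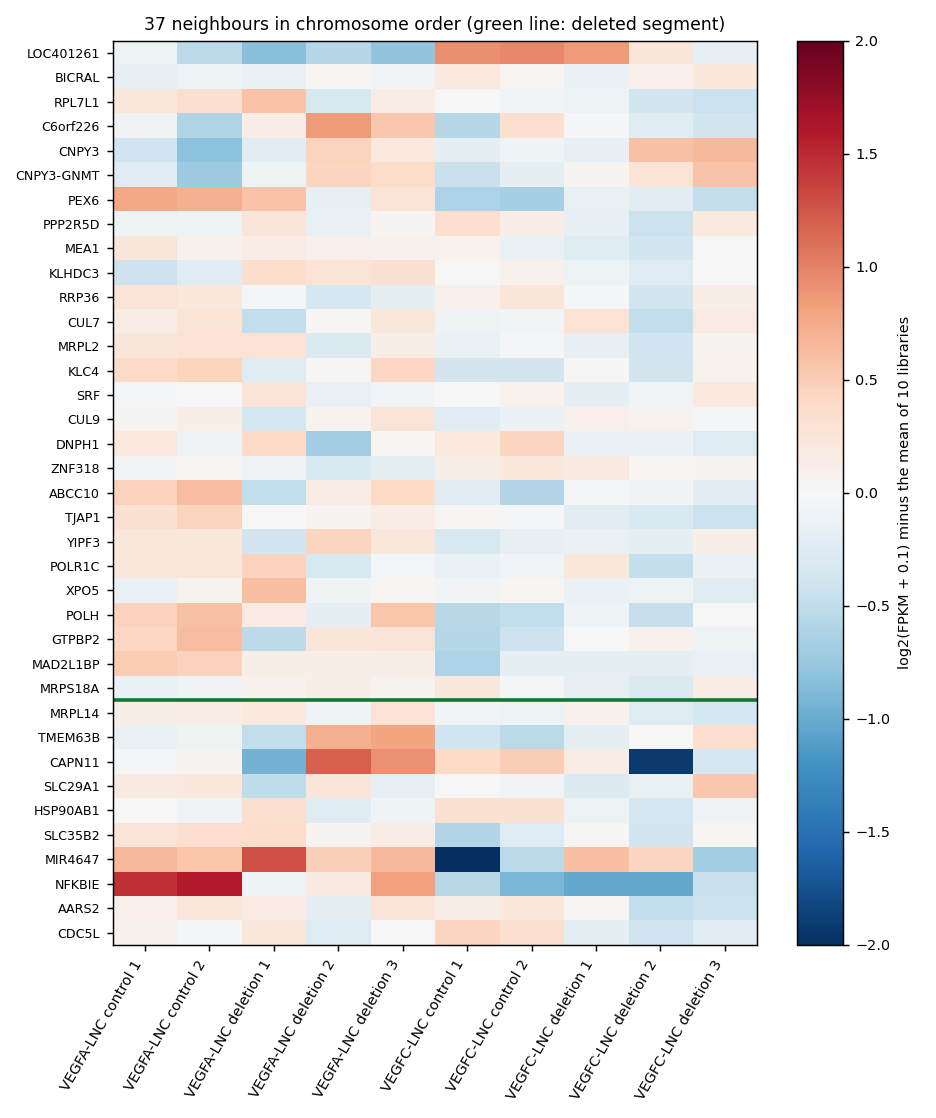
Level of the 37 neighbours (rows, in chromosome order) in each of the 10 libraries (columns), as log2(FPKM + 0.1) minus the gene's mean over the libraries, with colours cut at −2 and 2 and a green line at the deleted segment. *NFKBIE*, *PEX6*, *GTPBP2*, *POLH* and *MAD2L1BP* are red in the *VEGFA-LNC* controls and blue in the *VEGFC-LNC* controls.

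The next comparison uses the same genes in clones whose *VEGFA* locus is intact. In the *VEGFC-LNC* clones against their own controls, limma called 0 of 37 neighbours, against 63 of 13333 genes (0.473%). At an unadjusted p under 0.05 there were 5 neighbours (13.5%), against 18.8% of all genes, and voom on the recovered reads also called 0. The clones lay wholly to 1 side of the controls for 16 neighbours (43.2%), against 47.8% of all genes. The median log2 fold change was −0.07, beside −0.09 over all genes.

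*CDC5L*, a spliceosome component, had the smallest FDR there. It stood at 10.8 and 10.0 FPKM in the *VEGFC-LNC* controls and at 7.02, 6.05 and 6.91 FPKM in the clones, all lower (log2 fold change −0.64, SE 0.16, FDR 0.118). In the *VEGFA-LNC* set it stood at 8.46 and 7.76 FPKM in the controls and at 9.39, 6.69 and 8.03 FPKM in the clones, which overlap. *CAPN11* had 1.79 and 1.91 FPKM against 1.49, 0.280 and 1.04 FPKM (log2 fold change −1.14, SE 0.71). *LOC401261* had 0.576 and 0.588 FPKM against 0.537, 0.316 and 0.216 FPKM (−0.64, SE 0.33), and *TMEM63B* 4.24 and 3.81 FPKM against 4.92, 5.56 and 7.05 FPKM (0.51, SE 0.36). *CNPY3-GNMT* was higher in all 3 clones (0.62, SE 0.24). None of these passed the threshold.

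*MIR4647* is the 1 microRNA among the tested neighbours. Its 80-base row lies within the last exon of *SLC35B2* on the same strand, so reads there cannot be told apart from those of that gene. RefSeq gives its mature sequence, shown with the seed (bases 2 to 8) in capitals, at chr6:44254253-44254275 of GRCh38.p14 on the minus strand.

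hsa-miR-4647: gAAGAUGGugcugugcugaggaa

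Its row held 33 and 40 reads in the *VEGFA-LNC* controls, 44, 31 and 33 in those clones, 1 and 20 in the *VEGFC-LNC* controls and 41, 30 and 5 in those clones. The differences of this row rest on so few reads in 1 control that they are given as read counts only.

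Both control sets have the *VEGFA* locus intact, so their comparison measures how far neighbours differed without its deletion. Of 37 neighbours, 6 (16.2%) were called, against 1690 of 13333 genes (12.7%). All 6 were lower in the *VEGFC-LNC* controls, where 9.76% of all genes were called lower. They were *NFKBIE*, *PEX6*, *POLH*, *GTPBP2*, *MAD2L1BP* and *SLC35B2*. The control sets did not overlap for 30 neighbours (81.1%), against 82.9% of all genes.

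*POLH*, *GTPBP2* and *MAD2L1BP* are adjacent genes 132324 to 152752 bases before the segment. *POLH* had 2.56 and 2.66 FPKM in the *VEGFC-LNC* controls, a log2 fold change of −1.05 (SE 0.26, FDR 0.0329) from the *VEGFA-LNC* controls. *GTPBP2* had 6.69 and 7.51 FPKM (−1.0, SE 0.26, FDR 0.0373), and *MAD2L1BP* 5.87 and 7.98 FPKM (−0.89, SE 0.16, FDR 0.0125). For *POLH* and *GTPBP2*, every *VEGFC-LNC* clone was above both of its controls. *XPO5*, which shares the 65-base gap with *POLH*, differed by 0.02, so the head-to-head genes parted here.

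The other 3 called neighbours lay farther out. *NFKBIE* differed by −2.26 (SE 0.33, FDR 0.0067). *PEX6*, an ATPase of peroxisome import, had 4.45 and 4.29 FPKM in the *VEGFA-LNC* controls and 1.64 and 1.59 FPKM in the *VEGFC-LNC* controls (−1.38, SE 0.25, FDR 0.0125). *SLC35B2*, the Golgi transporter of the sulfate donor PAPS, had 17.5 and 18.5 FPKM against 9.65 and 12.1 FPKM (−0.73, SE 0.19, FDR 0.0369, and 0.0567 with the replicate block). Averaging each control pair to 1 sample, or leaving out any 1 control, left a set with 1 library. Far fewer genes, or none, were then called in all, so those fits cannot tell whether the 6 calls hold. Over all the alternatives the 6 stayed lower. Their log2 differences ran from −2.44 to −1.82 for *NFKBIE* and from −0.89 to −0.57 for *SLC35B2*.

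By comparison, *VEGFA* itself stood at 10.2 and 9.62 FPKM in the *VEGFA-LNC* controls and at 3.23 and 3.84 FPKM in the *VEGFC-LNC* controls. It was called lower there too (log2 fold change −1.46, SE 0.29, FDR 0.0172). The *VEGFA-LNC* clones had 4.68, 4.71 and 7.35 FPKM of it, and the *VEGFC-LNC* clones 8.85, 7.83 and 5.25 FPKM.

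The median log2 fold change of the neighbours between the control sets was −0.21, beside −0.11 over all genes. Scaling by the median of ratios moves the median of all genes by 0.10 and that of the neighbours to −0.10, so the neighbours remain 0.10 below all genes. By that scaling 5 neighbours were called lower and 1, *LOC401261*, higher, and *GTPBP2* was not called. The summed level of 8 proliferation markers was 112 to 115 FPKM in the *VEGFA-LNC* controls and 319 to 325 FPKM in the *VEGFC-LNC* controls, whereas it was 24.8 to 280 FPKM and 38.9 to 182 FPKM in the clones of the 2 sets. None of the 8 was called in any comparison. Of the 5 epithelial markers tested, 3 were lower and 2 higher in the *VEGFC-LNC* controls, and 2 were called lower. Their median difference was −1.02. The summed level of the epithelial markers was 1090 to 1100 FPKM in the *VEGFA-LNC* controls and 902 to 915 FPKM in the *VEGFC-LNC* controls. Of the 2 fibroblast markers tested, 1 was called lower, at a summed level of 0.566 to 0.594 FPKM against 0.148 to 0.179 FPKM, and it was also called lower in the *VEGFA-LNC* clones than in their controls. The summed level of leukocyte markers was 3.42 to 3.93 FPKM against 0.419 to 0.711 FPKM, and the 1 tested, *LYZ*, was not called there. The part of these markers in the neighbours' values was not tested.

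Partners of the 2 neighbours named by the study were compared from lists chosen with earlier results of these data known. Each list also holds the neighbour it was chosen for, *NFKBIE* or *KLHDC3*, whose call is given above and is no result of the list. Of 11 genes of the NF-kB family and its inhibitors tested, 6 were called lower in the *VEGFC-LNC* controls than in the *VEGFA-LNC* controls: *NFKBIE*, the subunits *NFKB2* (−2.03), *RELA* (−0.80) and *RELB* (−3.11), the inhibitor *NFKBIB* (−1.23) and the deubiquitinase *TNFAIP3* (−3.80). Over all genes 9.76% were called lower there, and with each control pair averaged to 1 sample none of these calls held. Upon either deletion limma called 0 of the 11. At an unadjusted p under 0.05 there were 2 upon *VEGFA-LNC* deletion, against 19.8% of all genes, and 1 upon *VEGFC-LNC* deletion, against 18.8%. The list's median difference between the control sets was −0.80, beside −0.11 over all genes. Of 12 genes of the CUL2 ligase core and its substrate receptors tested, *KLHDC3* rose and the receptor *FEM1A* fell (−0.59, FDR 0.0425) upon *VEGFA-LNC* deletion, where 2.75% of all genes were called, and the median was −0.13. *FEM1A* stood at 15.3 and 14.7 FPKM in the *VEGFA-LNC* controls and at 8.11 to 10.2 FPKM in the other 8 libraries. It was also called lower in the *VEGFC-LNC* controls (−0.71, FDR 0.0148), as was the receptor *FEM1C* (−0.66, FDR 0.0297), and its difference from the other 3 groups was −0.11 (FDR 0.539).

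Other groups of neighbours by role had few calls. Neither the 4 genes of mitochondrial translation (*MRPL2*, *MRPL14*, *MRPS18A* and *AARS2*) nor the 3 of ribosome making and RNA polymerase (*RRP36*, *RPL7L1* and *POLR1C*) had 1 call in any of the 5 comparisons. For reference, 78 mitochondrial ribosomal protein genes of the whole genome had a median log2 fold change of 0.00 upon *VEGFA-LNC* deletion and of −0.25 upon *VEGFC-LNC* deletion. Of 3 genes of cullin ubiquitin ligases, only *KLHDC3* was called, and *CUL7* and *CUL9* were not. The calls between the control sets, where 12.7% of all genes were called, are the 6 given above, divided by role, and are no separate results. Both genes of DNA repair and mitosis, *POLH* and *MAD2L1BP*, which lie close together, were called there and neither upon a deletion. The remaining calls between the control sets were 1 each among 5 transporters and membrane proteins (*SLC35B2*), 3 genes of chaperones and protein sorting (*PEX6*), 6 of transcription, splicing and RNA export (*NFKBIE*) and 3 of phosphatase and metabolism (*GTPBP2*). The 3 tested genes of cytoskeleton and junctions (*KLC4*, *TJAP1* and *CAPN11*) had 0 calls in any comparison, as did the 3 tested genes of the 3M complex, in which *CUL7* is the cullin.

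Finally, the effects of the 2 deletions were set against each other, and the *VEGFA-LNC* clones against the other 3 groups together. For the difference between the effects, limma called 0 of 37 neighbours, against 194 of 13333 genes (1.46%), and voom called 0. At an unadjusted p under 0.05 there were 6 neighbours (16.2%), against 18.5% of all genes. *KLHDC3* had the smallest FDR there, 0.0713, at a difference of 0.79 (SE 0.18). Every clone of 1 set lay above and every clone of the other below its own controls for 3 neighbours (8.11%), against 8.32% of all genes. The *VEGFA-LNC* clones against the other 3 groups gave 0 calls, against 379 of 13333 genes (2.84%), and 0 calls by voom. At an unadjusted p under 0.05 there were 5 neighbours (13.5%), against 22.1% of all genes. The values of these clones did not overlap those of the other 7 libraries for 3 neighbours (8.11%), against 6.05% of all genes. They were *KLHDC3*, *LOC401261* and *ZNF318*, the last chosen after its values were seen.

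*KLHDC3* passed the FDR there (0.0453) but not the fold, at a log2 difference of 0.45 (SE 0.10). *LOC401261* stood at 0.098 to 0.138 FPKM in the *VEGFA-LNC* clones, on 4 to 7 reads, and at 0.145 FPKM or more elsewhere (−1.05, SE 0.25, FDR 0.0557). *ZNF318*, a zinc finger gene, differed by −0.27 (SE 0.11). *NFKBIE* differed by 0.31 (SE 0.23), the opposite sign to its difference from the *VEGFA-LNC* controls alone.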

How the data were processed

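The authors deposited 1 table of FPKM values per RefSeq transcript row on GRCh37/hg19 for 10 rRNA-depleted, directional, single-end RNA-Seq libraries. Per the labels, Trim Galore (0.4.4), STAR (2.5.4b) and featureCounts were used. The authors tested with edgeR, which needs counts. The column headers say FPKM and the file's name RPKM. FPKM times the row's length, scaled to whole numbers, gave back reads (99.96 to 99.98% of the checked values whole within 0.02). Rows naming no gene (42, 0.03% of reads) were left out. The row with the highest mean was kept per symbol, with at least 1 cpm in 2 libraries. log2(FPKM + 0.1) was fitted over all 13333 genes and 4 groups with limma (3.58.1, R 4.3.3), without a block, with Benjamini-Hochberg FDR. This scale understates changes of low genes. Calls needed an FDR under 0.05 and a fold change of 1.5. Sequences came from GRCh37 and RefSeq and were read with Python (3.11.15). The procedure was tested on simulated data. Intervals of counting error are not given. Deviations from the group means of same-numbered libraries correlated at 0.219 to 0.553 between the clones of the 2 sets and at −0.055 to 0.0473 otherwise. Differently numbered libraries were not compared, so a pairing by number was not tested.

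Named neighbours were the 5 nearest on each side, all called, the 5 largest non-overlapping differences per deletion, *KLHDC3* and *NFKBIE*, and the 3 highest and 3 lowest. *SUPT3H*, which the rule also names, lies outside the window and is not described. *MEA1*, *MRPL2*, *KLC4*, *YIPF3* and *POLR1C* enter as head-to-head partners, *ZNF318* after its values were seen. The neighbours and all gene lists were chosen with earlier results of these data known. Alternatives were other pseudocounts, filters, scalings, rows, windows, controls, a replicate block, voom on the recovered reads and leaving out each library.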

Additional observations from a re-analysis of the deposited data

Results flagged for a closer look

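For 3 neighbours, every clone of 1 set lay below both of its own controls and every clone of the other set lay above both of its own, a share of 8.11% beside 8.32% of all tested genes. *PEX6* differed by −0.52 upon *VEGFA-LNC* deletion and by 0.36 upon *VEGFC-LNC* deletion, on the log2 scale. *GTPBP2* differed by −0.52 and 0.49. *ABCC10*, a transporter gene 322849 bases before the segment, differed by −0.52 and 0.30. The fit gives the differences between these effects as −0.88 (FDR 0.194), −1.01 (FDR 0.161) and −0.82 (FDR 0.272), none past the threshold. In all 3 genes the *VEGFC-LNC* controls were below the *VEGFA-LNC* controls, with log2 differences of −1.38, −1.0 and −0.94.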

How the results depend on the processing

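The number of neighbours called upon *VEGFA-LNC* deletion was 1 as reported, with 367 of 13333 genes called in all. It was 2 with a pseudocount of 1 (460 genes in all) and with voom (551). It was 0 against all 4 controls (29), within the set's own 5 libraries (20) and in a window of 500 kb. With a control left out or control pairs averaged, a set had 1 library, and those fits are not counted here. Leaving out a clone gave 0 to 5. The 5 (*KLHDC3*, *TMEM63B*, *CNPY3-GNMT*, *NFKBIE* and *PEX6*) came without the first *VEGFA-LNC* clone, where 1732 genes were called. Without the second or the third *VEGFA-LNC* clone it was 0, where 163 and 108 genes were called. Upon *VEGFC-LNC* deletion the range was 0 to 1 (*CDC5L*, without the first *VEGFA-LNC* clone, with 1158 genes in all). Between the control sets (6, with 1690 genes in all) it was 5 to 10, the 10 without the first *VEGFA-LNC* clone, with 3068 genes. For the difference between the effects it was 0 throughout. Against the other 3 groups it was 0 to 3, the 3 without the first *VEGFA-LNC* clone, with 2307 genes in all. It was 1 (*LOC401261*) without the third *VEGFC-LNC* clone. The largest counts of neighbours came where the most genes were called.

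The median log2 fold change upon *VEGFA-LNC* deletion became 0.013 against all 4 controls and ranged from −0.158 to −0.026 without a library. Upon *VEGFC-LNC* deletion it was 0.020 by the median of ratios, −0.134 against all 4 controls and 0.022 within 500 kb (−0.105 to −0.022 without a library). Between the control sets it was −0.100 by the median of ratios and −0.371 within 500 kb (−0.224 to −0.207). For the difference between the effects it was −0.069 with a filter in all 10 libraries, −0.086 with the longest row and −0.222 within 500 kb (−0.071 to 0.022). Against the other 3 groups it was 0.144 within 500 kb (0.049 to 0.134).

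Signs turned upon *VEGFA-LNC* deletion for *MAD2L1BP* (0.09), *POLH* (0.18) and *HSP90AB1* (−0.14) against all 4 controls, for *MRPL14* with the longest row (−0.00) and without a library (range −0.06 to 0.12), for *CAPN11* without the second clone (range −0.03 to 1.04) and for *HSP90AB1* without the first clone (range −0.13 to 0.16). *MRPL14* was −0.01 without the first *VEGFA-LNC* control, and −0.02 and −0.06 without the first and the third clone. The cause was not tested.

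With a replicate block, 1 neighbour was called upon *VEGFA-LNC* deletion, *NFKBIE* and not *KLHDC3*, and 5 between the control sets, without *SLC35B2*. Same-numbered libraries correlated at 0.219 to 0.553 between the clones of the 2 sets and at −0.055 to 0.0473 otherwise. Whether differently numbered libraries correlate less was not tested. The block changed no other call of the named neighbours. Rows with few reads, such as *LOC401261* and *C6orf226*, limit what depth can show.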
